A study of Homo sapiens with 4 samples.

Results

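ATP-binding cassette (ABC) drug efflux transporters were examined for FOXC1 binding in the cultured human bladder cancer line J82. The group held 8 of 20136 annotated protein-coding genes, namely ABCB1, ABCB4, ABCC1, ABCC2, ABCC3, ABCC4, ABCC5 and ABCG2. A FOXC1 peak was counted to a gene when its summit, the position of highest read coverage, lay in the gene body or within 50 kb of either end. Overlapping peaks of the replicates were merged into regions, and 60 of 50813 regions belonged to the 8 genes. FOXC1 chromatin immunoprecipitation with sequencing (ChIP-seq) had been done on J82 cultures for which the labels name no treatment and no genetic change. The data comprised 2 biological replicates made with the anti-FOXC1 antibody D8A6, for which 1 peak list each was analysed, and 2 input libraries without antibody, which were used by the authors as the peak-calling background. All libraries were single-end with reads of 75 bp. There was no second condition, so every comparison here is between genes or between the replicates.

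ABC transporters are membrane pumps that use the energy of ATP to move substrates across membranes, and several of them carry chemotherapeutic drugs and dyes out of cells. Export of the dye Hoechst is used to sort side population cells, and ABCG2 and ABCB1 are the pumps best known for it. FOXC1 is a forkhead transcription factor, a family whose members bind short AT-rich elements through a winged-helix domain. A ChIP-seq peak records that DNA of a site was recovered with the antibody and holds no measurement of the expression of the gene beside it.

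At ABCB1, 3 regions were listed in both replicates and 3 in replicate 2 alone, and all 6 lay in introns of the gene. The strongest region of the whole group lay in an intron of ABCG2. Its fold enrichment, the peak caller's ratio of scaled ChIP reads at the summit to the scaled local background with 1 added to each, was 20.3 in replicate 1 and 48.9 in replicate 2. The scaling was 1 in replicate 1 and 0.904 in replicate 2. Reads are given unscaled, and local backgrounds are given at the depth of the ChIP library. ABCC1 and ABCC4 carried the most shared regions, 6 each, and ABCC3 carried 1. ABCB4, ABCC2 and ABCC5 had no region shared by the replicates.

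The bases at 8 named transporter regions are given to show which of these runs hold a forkhead or AP-1 sequence and which do not. Each run holds the summit base with 50 bp on either side (plus strand, GRCh37, which is hg19), and capitals mark forkhead and AP-1 sequences. The forkhead sequences searched were GTAAACA, also ATAAACA, as well as GTAAATA, and lastly ATAAATA, each on both strands. The sequence searched for AP-1, a factor made of FOS and JUN family proteins, was TGACTCA on both strands, and it overlaps none of the forkhead sequences in its letters. The first 4 runs are from ABCB1, namely its 3 shared regions and the strongest region of replicate 2 alone.
ABCB1 shared intronic region near the canonical start, chr7:87228700-87228800: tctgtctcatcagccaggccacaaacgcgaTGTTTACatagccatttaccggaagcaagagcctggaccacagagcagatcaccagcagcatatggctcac
ABCB1 shared intronic region deeper in the gene, chr7:87199592-87199692: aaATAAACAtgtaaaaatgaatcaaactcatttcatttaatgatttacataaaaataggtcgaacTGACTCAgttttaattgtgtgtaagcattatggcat
ABCB1 shared intronic region upstream of the canonical start, chr7:87237904-87238004: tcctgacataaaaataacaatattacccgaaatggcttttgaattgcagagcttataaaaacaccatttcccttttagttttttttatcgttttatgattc
ABCB1 region of replicate 2 alone beside a RUNDC3B start, chr7:87258643-87258743: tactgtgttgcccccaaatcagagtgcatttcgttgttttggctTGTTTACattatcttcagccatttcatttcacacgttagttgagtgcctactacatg
ABCG2 strongest region, chr4:89027586-89027686: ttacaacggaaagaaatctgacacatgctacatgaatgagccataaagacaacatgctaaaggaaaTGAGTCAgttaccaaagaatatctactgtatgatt
ABCC4 strongest region, chr13:95752051-95752151: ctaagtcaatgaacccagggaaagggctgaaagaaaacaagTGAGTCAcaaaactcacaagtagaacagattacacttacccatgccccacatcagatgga
ABCC1 shared region with the widest replicate difference, chr16:16108852-16108952: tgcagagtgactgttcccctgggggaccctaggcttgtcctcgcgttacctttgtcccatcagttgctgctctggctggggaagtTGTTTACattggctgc
ABCC3 shared region beyond the gene end, chr17:48785301-48785401: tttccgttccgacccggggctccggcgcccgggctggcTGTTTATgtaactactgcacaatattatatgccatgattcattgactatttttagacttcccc
GTAAACA occurs on the minus strand in the first ABCB1 run, in the RUNDC3B-side run and in the ABCC1 run, where the plus strand reads TGTTTAC. The ABCG2 and ABCC4 runs hold the AP-1 sequence and no forkhead sequence, and the second ABCB1 run holds both. The replicate summits of that ABCB1 region were 117 bp apart, so neither lies in its run. The ABCB1 run upstream of the canonical start holds neither. The ABCC1 run is not from the best-ranked ABCC1 region, chr16:16119285-16119989, whose nearest forkhead sequence lay 558 bp from the midpoint of its summits.

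Replicate 2 gave more and stronger peaks across the genome. The lists held 22405 peaks in replicate 1 and 41789 in replicate 2, with a median fold enrichment of 3.02 and 3.63. The files held no read totals, and the depth worked out from the peak values was about 43200000 ChIP reads in replicate 1 and 41500000 in replicate 2. A median of 18 and 23 reads lay over a summit. Among all 13238 shared regions, 91.9% had the higher fold enrichment in replicate 2, with a median ratio of 1.69. Regions of replicate 2 alone numbered 28525 and those of replicate 1 alone 9050. What sets the lists apart was not tested.

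Counts at the transporters followed this difference in list length. The 8 windows held 23 peaks in replicate 1 and 55 in replicate 2. These formed 18 shared regions, 5 of replicate 1 alone and 37 of replicate 2 alone. Replicate 2 covered 78.3% of the replicate 1 peaks, against 59.6% over the genome, and replicate 1 covered 32.7% of the replicate 2 peaks, against 31.7%. Replicate 1 peaks were present at 6 of the 8 genes (62.8% of all protein-coding genes) and replicate 2 peaks at all 8 (80.2% of all). A shared region was present at 5 of 8 genes, or 62.5%, against 46.6% of all protein-coding genes. The windows were longer than most, with a median of 220 kb against 127 kb over all genes, and these shares are not corrected for length.

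**Figure D1:**
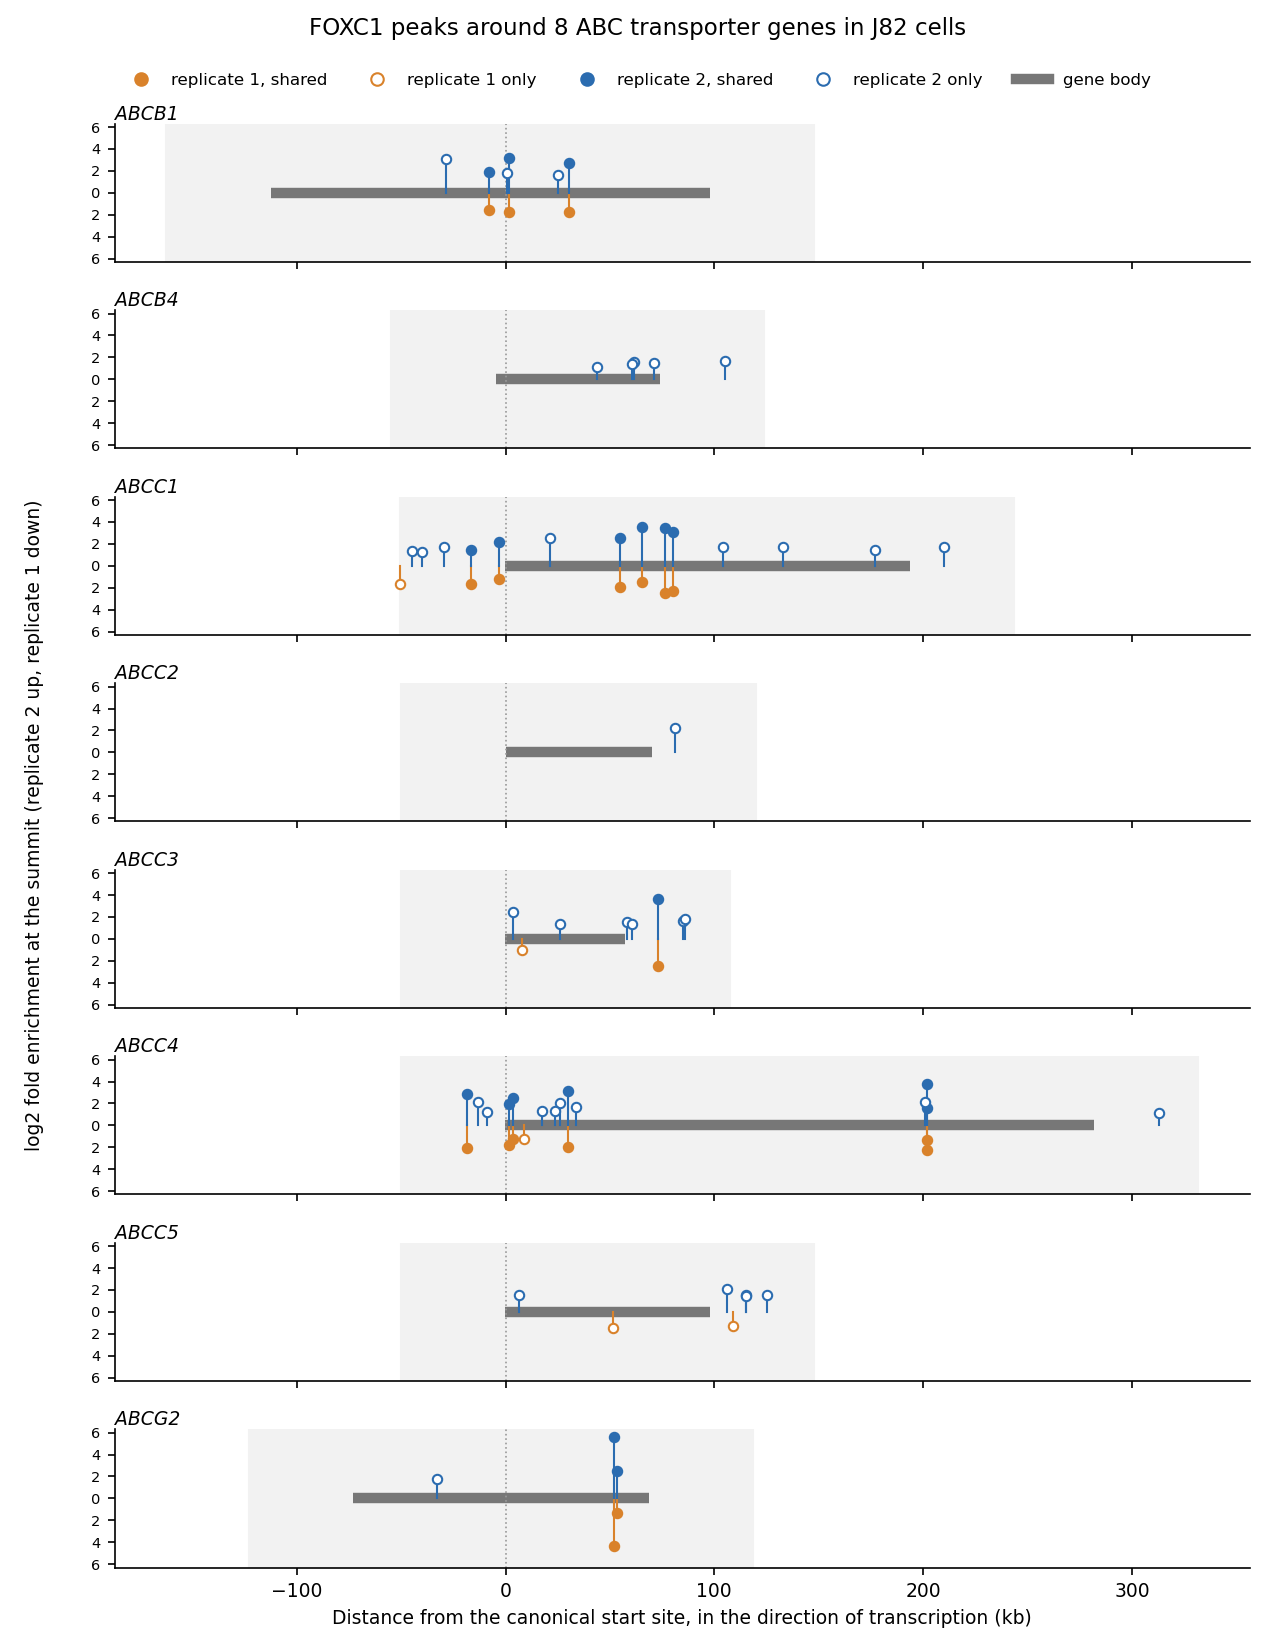
Regions along the window of each transporter, placed by distance in kb from the canonical start (dotted line), with log2 fold enrichment upward for replicate 2 and downward for replicate 1, filled points for shared regions, dark bars for gene bodies and grey for the windows. All 6 ABCB1 regions and all 3 ABCG2 regions lie inside the gene body, while 9 regions of other members lie upstream and 14 downstream.

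ABCB1 encodes P-glycoprotein, the broad-specificity pump of multidrug resistance. The gene (ENSG00000085563) runs on the minus strand at chr7:87132333-87342639. The best-ranked region that both lists held, chr7:87228519-87228987, was intronic and lay 1450 bp inside the start of the canonical transcript. Its fold enrichment was 3.40 in replicate 1 and 9.26 in replicate 2 (6.33 ± 4.15, mean ± SD, n = 2). The summit was covered by 27 reads (95% exact Poisson interval 17.8 to 39.3) in replicate 1 and by 70 reads (54.6 to 88.4) in replicate 2. The read intervals did not overlap, and the rank among all peaks was 6700 of 22405 in replicate 1 and 3639 of 41789 in replicate 2. It was thus within the strongest 29.9% of peaks in replicate 1 and 8.71% in replicate 2.

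A second shared ABCB1 region, chr7:87199444-87199931, lay in an intron 30.6 kb inside the canonical start. It had a fold enrichment of 3.46 and 6.65 in replicates 1 and 2 (5.05 ± 2.25, SD, n = 2), with 18 and 43 reads. The third, chr7:87237854-87238129, lay 7.75 kb upstream of the canonical start, in an intron of annotated ABCB1 transcripts that begin farther upstream. There the fold enrichment was 2.98 and 3.78 (3.38 ± 0.568, SD, n = 2), with 15 and 24 reads, and the replicates were closest to each other. Of the 3 shared ABCB1 regions, only the best-ranked one reached a −log10 q of 5 in both lists, where q is the p-value adjusted by the peak caller for the number of sites tested. All 3 were higher in replicate 2, the direction of most shared regions of the genome.

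The strongest ABCB1 region of replicate 2 alone was chr7:87258503-87258931, with a fold enrichment of 8.58, 44 reads and a −log10 q of 23.2. Its summit lay 147 bp from a start of RUNDC3B, a gene whose body overlaps that of ABCB1 there, and 28.5 kb upstream of the canonical ABCB1 start. With a fold enrichment above that of 2 of the 3 shared ABCB1 regions in replicate 2, it had no peak in the replicate 1 list. The other 2 regions of replicate 2 alone had fold enrichments of 3.01 and 3.57, and the latter, with 20 reads, lay 790 bp from the ABCB1 start.

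ABCB4 is the neighbour of ABCB1 on the chromosome and encodes the phosphatidylcholine translocator of bile. Its gene (ENSG00000005471) is at chr7:87031012-87109751, minus strand. No replicate 1 peak lay in its 179 kb window, where a count of 0 allows up to 2.06 peaks per 100 kb (upper limit of the exact Poisson interval). Replicate 2 listed 5 peaks, 4 in the gene body and 1 downstream. The strongest by −log10 p, the intronic chr7:87043350-87043691, had a fold enrichment of 2.92, 28 reads and a −log10 q of 3.75, while the fold enrichments of the 5 reached 3.20. The windows of ABCB1 and ABCB4 overlap, but no summit lay in the stretch they have in common.

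ABCG2 encodes breast cancer resistance protein, an efflux pump for drugs and for Hoechst dye. The gene (ENSG00000118777) is at chr4:89011302-89152780 on the minus strand. Its leading shared region, chr4:89027239-89028035, was intronic and lay 52.2 kb from the canonical start. Its mean fold enrichment was 34.6 ± 20.2 (SD, n = 2). In replicate 1 the summit held 129 reads (95% exact Poisson interval 108 to 153), and in replicate 2 it held 256 reads (226 to 289). It ranked 310 in replicate 1 and 200 in replicate 2, within the strongest 1.38% and 0.479% of peaks. The replicate summits were 13.0 bp apart. No other region of the 60 reached a fold enrichment above 5.56 in replicate 1 or above 13.3 in replicate 2.

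A second shared ABCG2 region, chr4:89026029-89026457, lay in an intron close to the first, with fold enrichments of 2.55 and 5.54 and 13 and 28 reads. The remaining ABCG2 region, chr4:89112656-89112925, was listed in replicate 2 alone at a fold enrichment of 3.33 with 21 reads. None of the 3 lay within 2 kb of an annotated start site, and the leading site is thus a distal intronic one.

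ABCC1 encodes MRP1, an exporter of glutathione conjugates and of many drugs. The gene (ENSG00000103222) is at chr16:16042995-16237114 on the plus strand, and its window held 7 replicate 1 and 14 replicate 2 peaks. Of its 6 shared regions, 4 lay in introns 54.7 to 80.1 kb inside the canonical start. The best-ranked was chr16:16119285-16119989, with fold enrichments of 5.42 and 11.2 (8.33 ± 4.11, SD, n = 2) and 27 and 58 reads. Next were chr16:16123064-16123985, at 4.80 and 8.30 with 24 and 54 reads, and chr16:16097915-16098400, at 3.91 and 5.70 with 24 and 43 reads. These 3 were the ABCC1 regions with a −log10 q of 5 or more in both replicates.

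At chr16:16108654-16109167 the replicates of ABCC1 differed most, with fold enrichments of 2.7 and 12, a ratio of 4.42. The summit held 26 reads in replicate 1 and 65 in replicate 2, while the local background was 8.99 reads in replicate 1 and 4.42 in replicate 2. The fold enrichment thus differed more than the ChIP reads did, because both of its terms differed. The fifth shared region by rank, chr16:16040050-16040998, lay 2662 bp upstream of an ABCC1 start, at 2.33 and 4.58 with 16 and 23 reads. The sixth, chr16:16026840-16027217, was named after its values were seen, since it was the 1 shared region of the 18 that was higher in replicate 1, at 3.22 against 2.73. Among regions of 1 list, replicate 2 had the intronic chr16:16064597-16065230 at 5.99 with 32 reads. The strongest of replicate 1, chr16:15992997-15993257, stood at 3.07 with 15 reads.

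ABCC4 encodes MRP4, an exporter of cyclic nucleotides and nucleotide analogues. The gene (ENSG00000125257) is at chr13:95672089-95953729 on the minus strand, with 7 replicate 1 and 14 replicate 2 peaks. Its leading region, chr13:95751865-95752420, was intronic and 202 kb inside the canonical start. It had fold enrichments of 4.84 and 13.3 (9.07 ± 5.98, SD, n = 2), with 43 reads (95% exact Poisson interval 31.1 to 57.9) and 97 reads (78.7 to 118). The sixth shared region, chr13:95751255-95751677, named after its values were seen, at 2.53 and 2.97, and the strongest region of replicate 2 alone by −log10 p, chr13:95752741-95753142 at 4.36 with 29 reads, flanked it, so that 3 regions stood in a cluster.

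Toward its 5′ end, ABCC4 had the shared intronic region chr13:95923522-95924137, at 3.91 and 8.78 with 24 and 49 reads. Upstream of the gene by 18.3 kb was chr13:95971752-95972657, at 4.21 and 7.18 with 23 and 39 reads. Nearer the start were the intronic chr13:95949943-95950291, at 2.31 and 5.75, and chr13:95951587-95952185, at 3.46 and 3.78. The last lay 1618 bp from an ABCC4 start and was the only shared region of the 7 other transporters within 2 kb of a start of its own gene. The strongest region of replicate 1 alone, chr13:95944725-95945094, had a fold enrichment of 2.33 with 16 reads.

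ABCC3 encodes MRP3, an exporter of organic anions such as bile salt and glucuronide conjugates. The gene (ENSG00000108846) is at chr17:48712138-48769614 on the plus strand. Its 1 shared region, chr17:48784945-48785644, lay 15.7 kb beyond the gene end and 76 bp from a start of ANKRD40. The fold enrichment there was 5.56 and 12.2 (8.87 ± 4.69, SD, n = 2), with 37 and 63 reads. Within the ABCC3 body no shared region was listed, and replicate 2 alone had chr17:48715823-48716253, intronic and 3.81 kb inside the start, at 5.57 with 30 reads. The strongest region of replicate 1 alone, chr17:48719708-48720047, had 2.03 with 12 reads. The 3 exonic regions of the whole group were in this window, in exons of ANKRD40 and LUC7L3 and not of ABCC3.

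ABCC5 and ABCC2, like ABCB4, had no shared region. ABCC5 encodes MRP5, an exporter of cyclic nucleotides, and the gene (ENSG00000114770) is at chr3:183637722-183735727 on the minus strand. It had 2 replicate 1 and 5 replicate 2 peaks with none in common. The strongest were chr3:183629825-183630214 in replicate 2, 7.70 kb beyond the gene end, at 4.22 with 25 reads, and the intronic chr3:183684068-183684327 in replicate 1, at 2.7 with 15 reads. ABCC2 encodes MRP2, an apical exporter of conjugates in liver and kidney, and the gene (ENSG00000023839) is at chr10:101542397-101612351 on the plus strand. Its window had no replicate 1 peak and 1 replicate 2 peak, chr10:101623547-101623940, which lay 11.4 kb past the gene end at 4.58 with 23 reads.

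**Figure D2:**
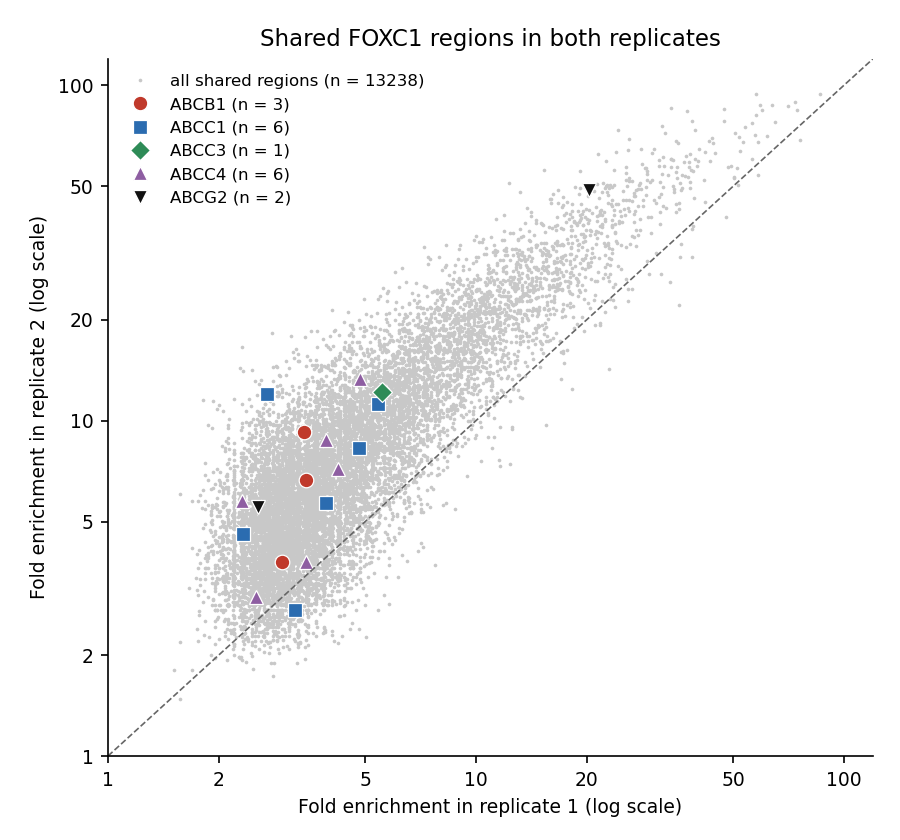
Fold enrichment in replicate 1 against replicate 2 on log axes for the 18 shared transporter regions, by gene, over all 13238 shared regions in grey, with a dashed line of equality. The leading ABCG2 region, at 20.3 and 48.9, stands above the other transporter regions, and 17 of the 18 lie above the line.

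**Figure D3:**
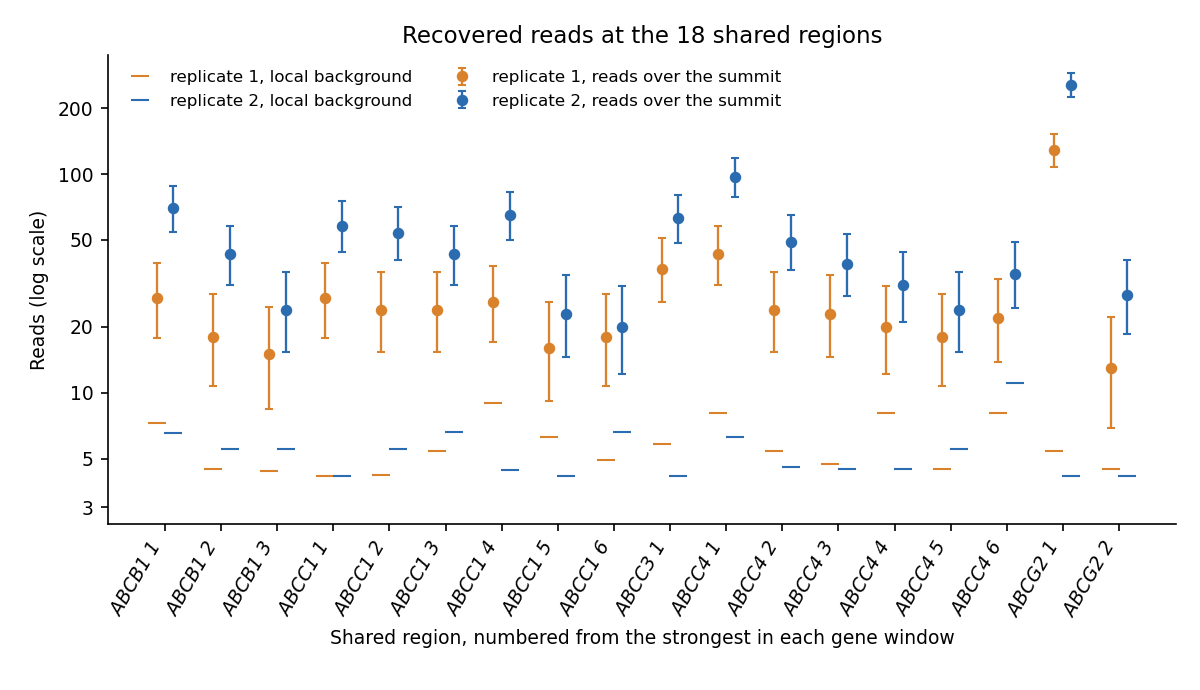
ChIP reads over the summit (points, log axis) of the 18 shared regions in each replicate, numbered by rank within each gene, with 95% exact Poisson intervals that cover counting error only and dashes for the local background. The leading ABCG2 region holds 129 and 256 reads, and the best-ranked ABCB1 region holds 27 and 70.

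Across the 18 shared regions the median fold enrichment was 3.46 in replicate 1 and 6.92 in replicate 2, against 3.79 and 6.71 over all shared regions. Dividing replicate 2 by replicate 1 gave a median of 2.02, against 1.69. Regions of replicate 2 alone ranged from 2.23 to 8.58, with a median of 3.01 against 3.18 over the genome, and the 5 of replicate 1 alone ranged from 2.03 to 3.07. Regions of replicate 2 alone thus had a lower median than shared ones, and the ABCB1 region beside RUNDC3B was the strongest of them. Summits of a shared region lay a median of 44 bp apart, from 3 to 117 bp, against 28.0 bp over the genome.

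To compare ABCB1 with the other transporters, the number, sharing and position of regions were set side by side. ABCB1 had 6 regions in 310 kb, or 1.93 per 100 kb, and the 7 others had 54 in 1544 kb, or 3.50 per 100 kb. The stretch that the ABCB1 and ABCB4 windows have in common was counted to ABCB1. The lists were used whole and held weak peaks, with a −log10 q down to 0.112 at ABCB4 and 0.0728 at ABCC3. At ABCB1 the lowest −log10 q was 1.79, so the weakest peaks counted were those of other transporters. The density ratio was 0.553 (95% exact interval 0.194 to 1.28), and the difference did not pass the test (exact binomial test, two-sided, p = 0.224, Benjamini-Hochberg adjusted p = 0.370 over 3 tests). By list, ABCB1 had 0.967 replicate 1 peaks per 100 kb (0.199 to 2.83) and 1.93 replicate 2 peaks (0.710 to 4.21). ABCC1 had the highest density in both lists, at 2.38 (0.957 to 4.90) and 4.76 (2.60 to 7.99). The intervals of ABCB1 overlapped those of every other transporter in both replicates. The density ratio was 0.774 with the common stretch counted to ABCB4 and 0.737 with it left out. It was 0.786 with a −log10 q of at least 5 required, and it turned to 1.15 with a fold enrichment of at least 5 required. Over all protein-coding genes the median was 0.736 in replicate 1 and 1.56 in replicate 2.

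**Figure D4:**
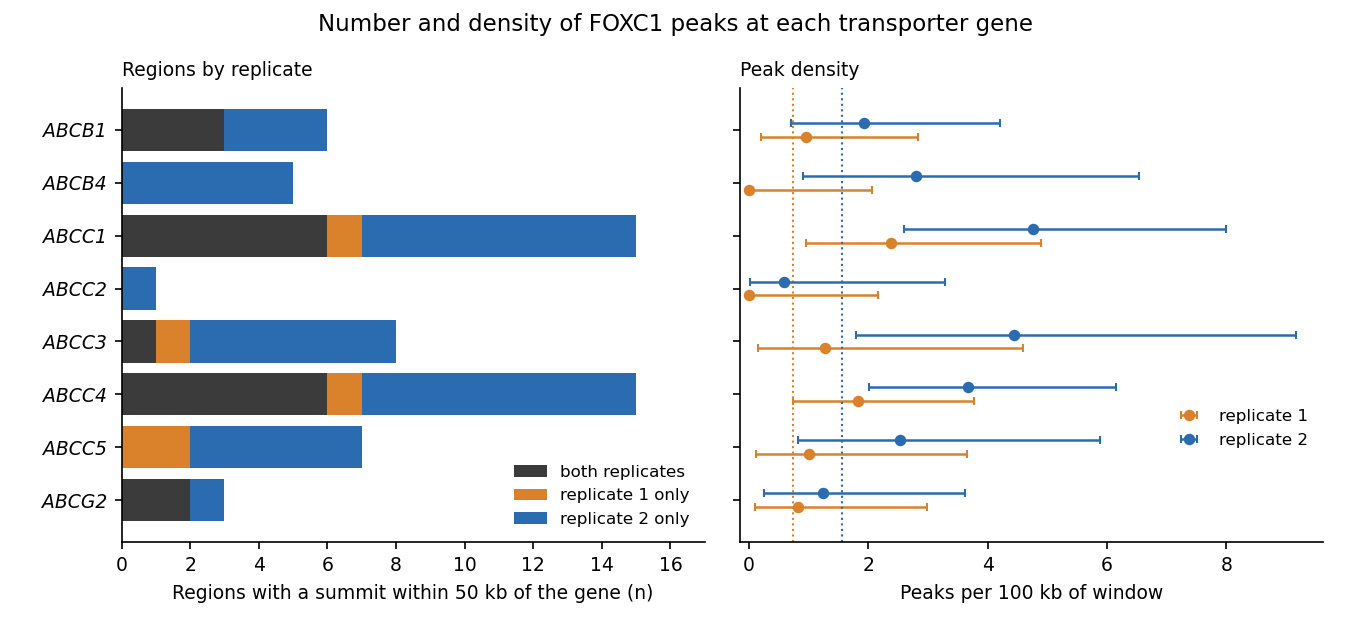
Number of regions of each transporter by replicate class (left) and peaks per 100 kb of window in each replicate with 95% exact Poisson intervals (right), where dotted lines mark the medians over all protein-coding genes. ABCC1 is densest, at 2.38 and 4.76 peaks per 100 kb, and the intervals of ABCB1 overlap those of every other gene.

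Sharing between the replicates was compared next, and no difference passed the test. All 3 replicate 1 peaks of ABCB1 overlapped a replicate 2 peak, as did 15 of 20, or 75.0%, at the other transporters. Of the merged regions, 3 of 6 (50%) were shared at ABCB1 and 15 of 54 (27.8%) at the others, against 26.1% over the genome. The difference was 22.2 percentage points (95% Newcombe interval -11.7 to 55.1; Fisher's exact test, two-sided, p = 0.352, adjusted p = 0.370). The difference was 0.794 points when summits of the replicates had to lie within 100 bp. It turned to -23.1 points when peaks needed a fold enrichment of at least 5 in their own list. With a −log10 q of at least 5 needed, it turned to -8.77 points. In shared regions per 100 kb, ABCB1 stood at 0.967 (95% exact Poisson interval 0.199 to 2.83), above 82.2% of protein-coding genes, whose median was 0. ABCC1 stood at 2.04, above 96.2%, and ABCC4 at 1.57, above 90.6%. ABCG2 stood at 0.828, above 72.5%, and ABCC3 at 0.635, above 63.1%, while ABCB4, ABCC2 and ABCC5 were at 0. By regions of either list, ABCB1 was above 53.2% of genes. These standings are not corrected for window length, which was 310 kb at ABCB1 against a median of 127 kb. A shared region was present at 46.6% of all protein-coding genes, so any gene with one stands above the rest.

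Position was compared by the share of regions within 2 kb of any annotated start site. This held for 3 of 6 ABCB1 regions (50%) and for 16 of 54 (29.6%) at the other transporters, against 20.6% of all regions. The difference was 20.4 percentage points (95% Newcombe interval -13.5 to 53.3; Fisher's exact test, two-sided, p = 0.370, adjusted p = 0.370). The difference was 3.7 points within 5 kb of a start, 37 points with starts of protein-coding genes alone (Fisher's exact test, p = 0.0524), and 59.0 points with a fold enrichment of at least 5. Many of these starts belonged to other genes, and 2 ABCB1 regions and 4 regions of the others lay within 2 kb of a start of their own gene. All 6 ABCB1 regions and 31 of the 54 others, among them all 3 of ABCG2, lay in the gene body. The body took up 210 of the 310 kb window at ABCB1, against 57.5 of 157 kb at ABCC3 and 282 of 382 kb at ABCC4. Of the 54, 38 were intronic in some gene. Regions of 1 locus are not independent, so the 3 tests cover counting error only, and with 6 ABCB1 regions the intervals remain wide.

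Forkhead sequences were sought within 50 bp of the summits, which the choice of regions did not use. They were found at 21 of 60 transporter regions (35.0%, 95% exact interval 23.1 to 48.4), against 34.0% of all regions. In windows of the same length placed 500 bp away the share was 10.0% at the transporters and 9.96% over all regions. ABCB1 regions had a match in 4 of 6 cases (66.7%, 22.3 to 95.7), and the others in 17 of 54 (31.5%, 19.5 to 45.6). Shared regions of the group had one in 7 of 18 (38.9%, 17.3 to 64.3), against 48.7% of all shared regions. The transporters therefore lay near the genome-wide shares, within wide intervals. Replicate summits of shared regions were farther apart at the transporters (median 44 bp) than over the genome (28.0 bp), so the searched midpoint lay farther from them. Whether this changed the share at shared regions was not tested.

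At the best-ranked ABCB1 region, whose replicate summits were 53 bp apart, the match was centred 17 bp from their midpoint. At the region beside RUNDC3B it was 3 bp from the summit of replicate 2. The shared ABCC3 region, with summits 34 bp apart, had ATAAACA on the minus strand 9 bp from their midpoint. In ABCC4, chr13:95949943-95950291 had GTAAATA 5 bp from the midpoint of its summits, which were themselves 97 bp apart. The leading ABCG2 region had its nearest forkhead match 148 bp from the midpoint of its summits, and the AP-1 sequence 19 bp from that midpoint. The leading ABCC4 region had AP-1 6 bp from the midpoint of its summits and its nearest forkhead match 229 bp away. AP-1 sequences were present at 5 of 60 transporter regions (8.33%), against 9.93% of all regions, and at 3 of 18 shared transporter regions (16.7%), against 16.6% of all shared regions. These matches describe letters in a window and are not evidence that a factor sits there.

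Related genes were counted by the same rule. Of the other 40 ABC family genes, 23 (57.5%) had a shared region, 26 a replicate 1 peak and 33 a replicate 2 peak. Over all protein-coding genes, 62.8% had a replicate 1 peak and 80.2% a replicate 2 peak. A list of 9 genes for platinum transport held copper transporters, organic cation carriers and MVP, which encodes a vault protein and not a transporter. Of these 9 genes, 7 (77.8%) had a shared region. The transporters' 62.5% lies between these shares, all above the 46.6% of protein-coding genes. Shared regions with a −log10 q of at least 5 in both lists were present at 5 of 8 transporters, 17 of 40 other ABC genes and 4 of 9 platinum transport genes, against 29.4% of all genes. The median number of shared regions per 100 kb was 0.732 at the transporters, 0.462 at the other ABC genes and 0.700 at the platinum transport genes. The last named values were chosen after they were seen. ABCD2, a peroxisomal fatty acid transporter, had the region with fold enrichments of 13.8 and 43.0, outside its gene body. ATP7A, a copper exporter, had one at 11.4 and 19.2 inside its gene body.

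The 50 kb limit decided which regions were counted. The outermost region inside it was the ABCC1 region of replicate 1 alone at 49.9 kb, with a fold enrichment of 3.07. The nearest one outside was a shared region 51.1 kb from ABCC4, at 3.11 and 2.95. Beyond the limit, shared regions were also listed 84.7 kb from ABCB4, at 6.55 and 9.83, and 75.1 kb from ABCC5, at 6.69 and 9.46, so the absence of a shared region at these genes holds for the 50 kb window only.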

How the data were processed

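FOXC1 ChIP-seq of J82 cells comprised 2 ChIP and 2 input libraries, grouped by sample title. According to the study's methods and processing notes, BWA mapped the reads to hg19, and MACS2 (version 2.2.7.1) called peaks over the input. The set of reproducible peaks that the study then selected was not analysed here. Each deposited peak carried a score (10 times the −log10 p, truncated), a fold enrichment, which is a ratio to local background, a −log10 p, a −log10 q, and a summit offset, all computed by the authors per replicate. Files of the input libraries were not analysed here. Entries off chromosomes 1 to 22, X and Y were left out (42 and 43). Peaks sharing at least 1 bp were merged, and a shared region was placed at the midpoint of the 2 replicate summits. Whole reads over each summit were solved from fold enrichment and −log10 p (residual under 0.001, 100.0% of peaks in both lists), and depth assumed a 2.7 Gb genome and the smallest peak widths (260 and 270 bp) as fragment lengths. Genes came from GENCODE 44 on GRCh37 (the study used version 19). Python 3.11.15, scipy 1.17.1 and pandas 2.3.3 were used, and the code was tested on simulated data. Named regions were all shared regions of a gene if 5 or fewer, otherwise the 5 best by the worse replicate rank of −log10 p, plus the strongest region of each list alone. The alternatives varied the window, peak limits, overlap rule, start-site distance, motif search, the treatment of the ABCB1 and ABCB4 overlap, and the replicates used. Intervals cover counting error only and not differences between cultures. No molecular identifiers are described. The 8 genes, the gene lists and the tests were chosen with earlier results of these data known.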

Additional observations from a re-analysis of the deposited data

How the results depend on the processing

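Of 46 recomputed values, 38 had the same direction and did not cross the adjusted p threshold of 0.05, or, for values with no test, stayed close in size, but the sizes of the ABCB1 differences moved widely. The reported density ratio of 0.553 was the lowest, the alternatives giving 0.609 to 1.15. Sharing ranged from -23.1 to 26.8 points, with 0.794 for summits within 100 bp, and the start-site difference from 3.7 to 59.0 points, with 50.9 at a −log10 q of at least 5. None of the 3 ABCB1 tests passed that threshold under any alternative (lowest adjusted p 0.570 for density, 0.258 for sharing and 0.157 for start-site share). With a fold enrichment of at least 5, the density ratio turned to 1.15, the sharing difference to -23.1 points, and the transporters with a shared region fell to 3, namely ABCC1, ABCC3 and ABCG2. Sharing also turned to -1.71 points with a 100 kb flank and to -8.77 with a −log10 q of at least 5. The share of transporter regions with a forkhead sequence changed as fewer or more bases and sequences were searched. It was 16.7% within 25 bp of the summit or midpoint, against 22.1% of all regions, and 51.7% within 100 bp, against 46.3%. For GTAAACA alone it was 18.3%, against 13.9%. The causes of the other turns were not tested. With 1 replicate left out, the density ratio was 0.609 to 0.746, the start-site difference 13.3 to 19.4 points and the forkhead share 26.1 to 38.2%, while sharing cannot be computed from 1 list. No paired analysis was possible because only the FOXC1 ChIP group had peak lists, and the input files were not analysed here. The 6 ABCB1 regions leave wide intervals, and most summits rest on few reads.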
